A study of Rattus norvegicus with 24 samples.

Results

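The annexin family is described here through 9 genes, Anxa1, Anxa2, Anxa3, Anxa4, Anxa5, Anxa6, Anxa7, Anxa8 and Anxa11, among the 32881 genes that every count file of the series lists. They were selected from 12 genes named Anxa, with their levels by neuron type, their relation to Sprr1a and their levels by group already known, so all 3 of these readouts are given as descriptions without a test. By the study's methods the measured cells were neurons of the L4 and L5 dorsal root ganglia (DRG) of male SD rats. They were picked one at a time by mouth pipette and read as unique molecular identifiers (UMIs), each marking 1 captured RNA molecule. In spared nerve crush (SNC) the tibial and common peroneal branches of the left sciatic nerve were crushed and the sural branch was left intact, whereas in sham rats the nerve was exposed and not injured. In the rats of 16 labelled DRG samples, sham rats included, dye was injected by glass micropipette into the nerve branches 2 weeks before the operation. These samples comprised 4 of sham rats and, after SNC, 4 taken on day 1, 3 on day 3 and 5 on day 7. A further 7 libraries, called added sham here, are labelled sham at day 0 (3 libraries), day 1 (2 libraries), day 3 (1 library) and day 7 (1 library), and nothing in their labels names a dye or a nerve branch. The label of a neuron as crushed or uncrushed is not carried by the cell names, so every labelled sample mixes neurons of both kinds, and the age of the rats is not given in the sources used here.

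Annexins are cytosolic proteins that bind negatively charged phospholipids when calcium rises, and through this they organise membranes, vesicle traffic and the patching of torn plasma membrane. Each has a conserved calcium-binding core and its own amino-terminal tail, which carries the binding sites for partners such as the small S100 proteins. In sensory ganglia annexins occur both in neurons and in the glia and vessels around them, and Sprr1a, against which they are read below, is a gene that DRG neurons switch on after axon injury and that is linked to axon outgrowth.

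With a minimum of 500 genes and 1000 UMIs per cell and less than 5% of UMIs from Mt- genes, 930 labelled neurons and 503 added sham neurons were kept. The median was 239286 UMIs per labelled neuron and 340145 per added sham neuron, and the UMIs summed per sample ranged from 4002503 to 28975829 in the labelled groups and from 14004136 to 40732975 in added sham. Sham sample Xin stood apart from the other sham samples, with the highest Atf3 (1073 counts-per-million, CPM) and Gal (2622 CPM) of the sham group and 7 of its 24 neurons in a cluster with high glial genes. Summed markers of glia (7 genes) ranged from 339 to 1645 CPM over the labelled samples and from 141 to 1526 CPM over the added sham libraries, those of macrophages stayed at or under 34 CPM, and those of vessel and connective tissue (4 of 5 markers listed in the files) at or under 33.8 CPM. Cells of different libraries carry the same running numbers, and 0 cells had the values of another cell.

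All 9 members were detected in both sets of neurons. Anxa2 had a UMI in 100% of labelled neurons, and Anxa5, Anxa6, Anxa7 and Anxa11 in 98.1% to 99.9%. The others were found in fewer cells, Anxa1 in 91.7%, Anxa8 in 72.4%, Anxa4 in 62.6% and Anxa3 in 39.7% of labelled neurons. Among the 3 annexin genes that are not members, Anxa9 had 10 UMIs, Anxa10 14 and Anxa13 3 over all 930 labelled neurons, so they were close to the limit of detection. UMIs were not divided by transcript length, and levels are therefore compared between cells and samples for each gene and not between genes.

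The start regions of the members whose levels differed most between neuron types, of the broadly expressed Anxa2, and of Sprr1a are shown first, since these genes are followed through all readouts below. The windows are from RefSeq on build GRCr8, each with 250 bases before the annotated start and 50 from it on, written 5′ to 3′ on the strand of the gene, and 8 of the 9 members have one (Anxa6 has none). Capitals mark matches on either strand to any of 3 motifs, which do not overlap in these windows. The core of the AP-1 motif was searched as TGANTCA. For the TATA box, the element that positions the start of transcription in some genes, the letters were TATAAA. For the GC box, bound by Sp1 and its relatives, they were GGGCGG.
Anxa1 (chr1:227303683-227303982, - strand): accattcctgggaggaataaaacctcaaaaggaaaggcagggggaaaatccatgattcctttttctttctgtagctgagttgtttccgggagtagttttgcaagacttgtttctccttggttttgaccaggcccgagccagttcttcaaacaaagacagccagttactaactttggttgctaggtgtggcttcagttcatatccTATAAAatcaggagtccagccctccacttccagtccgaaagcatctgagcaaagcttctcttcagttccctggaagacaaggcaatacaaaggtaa
Anxa3 (chr14:13085548-13085847, - strand): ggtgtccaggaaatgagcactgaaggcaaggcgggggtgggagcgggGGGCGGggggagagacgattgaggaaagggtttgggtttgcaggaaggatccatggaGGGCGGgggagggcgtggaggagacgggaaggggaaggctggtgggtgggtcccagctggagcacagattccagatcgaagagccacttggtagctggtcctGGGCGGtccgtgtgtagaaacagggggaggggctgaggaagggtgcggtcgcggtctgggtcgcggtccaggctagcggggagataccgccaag
Anxa4 (chr4:120798464-120798763, - strand): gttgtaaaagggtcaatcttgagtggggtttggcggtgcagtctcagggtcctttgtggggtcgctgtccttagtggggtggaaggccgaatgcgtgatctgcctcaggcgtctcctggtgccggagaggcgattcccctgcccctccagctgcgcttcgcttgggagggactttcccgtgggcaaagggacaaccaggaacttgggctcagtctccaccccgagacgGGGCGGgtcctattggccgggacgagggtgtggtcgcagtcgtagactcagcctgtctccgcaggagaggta
Anxa8 (chr16:9403137-9403436, + strand): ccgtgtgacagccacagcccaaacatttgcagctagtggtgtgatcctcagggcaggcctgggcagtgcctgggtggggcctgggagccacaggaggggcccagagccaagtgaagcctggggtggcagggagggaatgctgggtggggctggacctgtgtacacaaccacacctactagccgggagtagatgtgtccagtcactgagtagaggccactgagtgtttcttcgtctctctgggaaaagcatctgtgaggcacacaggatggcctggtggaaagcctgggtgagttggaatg
Anxa2 (chr8:78986002-78986301, + strand): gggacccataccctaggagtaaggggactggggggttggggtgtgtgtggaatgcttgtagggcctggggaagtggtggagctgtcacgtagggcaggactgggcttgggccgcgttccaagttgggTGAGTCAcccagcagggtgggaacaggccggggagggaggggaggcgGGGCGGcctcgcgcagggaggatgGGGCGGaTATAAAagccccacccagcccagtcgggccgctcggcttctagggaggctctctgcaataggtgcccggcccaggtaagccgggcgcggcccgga
Sprr1a (chr2:180752576-180752875, - strand): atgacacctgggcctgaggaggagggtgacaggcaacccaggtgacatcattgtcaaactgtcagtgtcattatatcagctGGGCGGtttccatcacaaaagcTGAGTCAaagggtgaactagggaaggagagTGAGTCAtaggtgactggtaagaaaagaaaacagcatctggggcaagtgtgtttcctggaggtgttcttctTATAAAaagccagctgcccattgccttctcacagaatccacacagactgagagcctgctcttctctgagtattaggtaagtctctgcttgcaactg

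The AP-1 letters stood in the windows of Anxa2, 123 bases before its start, and of Sprr1a, 147 and 117 bases before its start, and in none of the other 7 member windows. Over all 33469 rat windows of this length, 7.33% hold them. A TATA box was found in Anxa1, Anxa2 and Sprr1a (14.2% of all windows). A GC box was found in Anxa2, Anxa3, Anxa4, Anxa5, Anxa7, Anxa11 and Sprr1a (33.1% of all windows). Anxa1 and Anxa8 each held 3 CG dinucleotides, against 12 to 27 in the other 6 members with a window and a median of 7 over all windows. These matches describe letters only and say nothing of whether a factor binds there.

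The neurons were clustered from their whole profiles, the labelled and the added sham neurons apart, and a cluster was called X-like only when at least 3 listed markers of X were high in it. Anxa1, Anxa3, Anxa4 and Anxa8 were among the 2000 variable genes used for the labelled neurons, and Anxa1, Anxa4 and Anxa8 among those used for the added sham neurons, so differences between clusters are a description. The labelled neurons formed 10 clusters. The names PEP1-like, PEP2-like and PEP3-like come from the study's peptidergic nociceptor types. NF-like denotes neurons with neurofilament, and SST-like those with Nppb, Il31ra and Osmr. In the PEP2-like cluster 11 of 15 PEP2 markers were high, of which only Gal encodes a neuropeptide. SST-like cluster 7 was also high in Sst, whereas SST-like cluster 5 was not. Cluster 6 was NP-like (non-peptidergic) by 4 of 5 markers, yet Mrgprd, the marker that usually defines that type, was at 0.228 CPM in it and its leading gene was Mrgprb4, so it is called the Mrgprb4-led cluster here. Cluster 8, with high glial genes, and cluster 9, led by Foxp2, Penk and Trpm8, were left unnamed.

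Of the members, 4 were restricted to some types of neuron (the map of levels by cluster shows all 9, with cluster 6 under its marker name). Anxa1, known as a mediator that damps inflammation through formyl peptide receptors, was at 1308 ± 260 CPM (SD, n = 16 samples) in PEP2-like neurons and at 876 ± 69 CPM (n = 8) in the Mrgprb4-led cluster 6. In the other named clusters it averaged 24.3 to 59.4 CPM, and in the glia-rich cluster 8 it reached 175 ± 154 CPM (n = 7). PEP2-like neurons were above the remaining neurons of their own sample in 16 of 16 samples, 11-fold on average, and those of cluster 6 in 8 of 8, 3.58-fold. PEP2-like cells yielded 12.6% of all UMIs and 60.2% of the Anxa1 UMIs, and cluster 6 yielded 25.7% of them. PEP1-like and PEP3-like neurons, the other clusters named after peptidergic types, had 54.4 ± 51.3 and 30.9 ± 19.9 CPM of Anxa1.

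**Figure D1:**
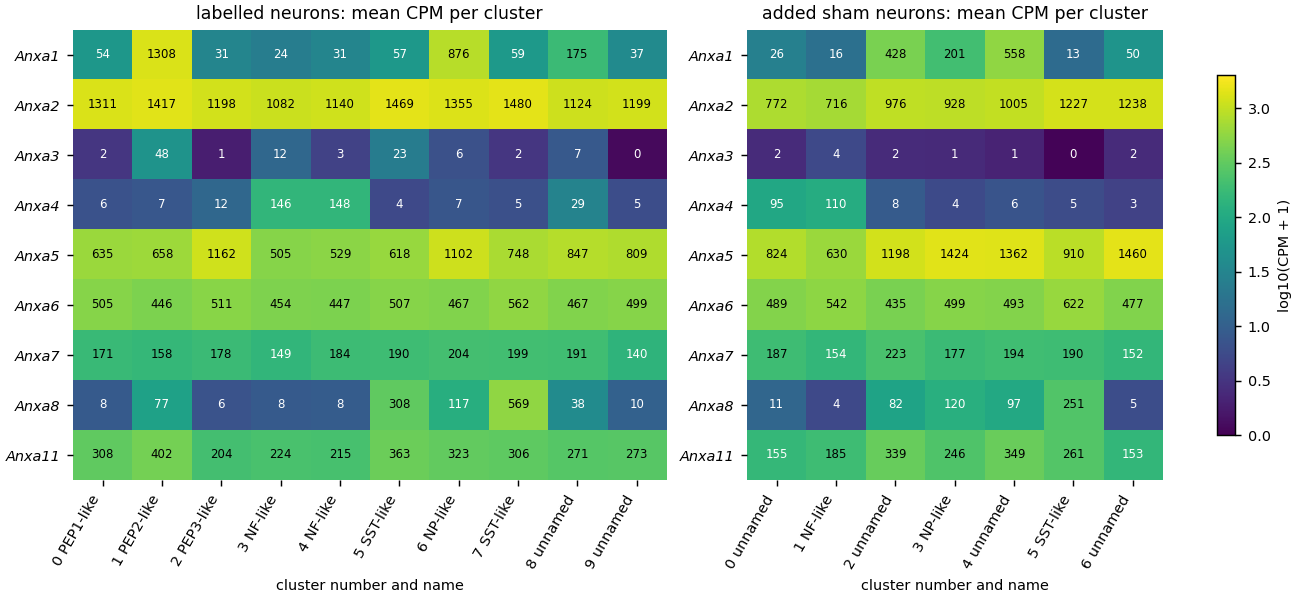
Mean CPM of the 9 annexins in each cluster of labelled neurons (left) and of added sham neurons (right), averaged over samples with at least 3 cells in the cluster, coloured by log10(CPM + 1). Anxa1, Anxa3, Anxa4 and Anxa8 differ widely between clusters (Anxa1 from 24.3 to 1308 CPM), while Anxa2, Anxa5, Anxa6, Anxa7 and Anxa11 are present in every cluster.

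Anxa8 was highest in the SST-like clusters, at 569 ± 71.0 CPM (n = 8) in cluster 7 and 308 ± 95 CPM (n = 12) in cluster 5. The Mrgprb4-led cluster 6 followed with 117 ± 63.4 CPM and PEP2-like neurons with 76.7 ± 44.3 CPM, and the ranges of these neighbours overlapped. PEP1-like, PEP3-like and both NF-like clusters had 5.96 to 8.00 CPM. Neurons with Nppb and Il31ra are known to respond to itch-inducing signals. Osmr, the oncostatin M receptor gene of the SST marker list, was among the 3 genes most alike to Anxa8 over single neurons. Anxa4 marked the NF-like clusters, with 148 ± 42.9 CPM (n = 15) in cluster 4 and 146 ± 62.3 CPM (n = 12) in cluster 3, values that do not differ beyond their spread. It was at 29.1 ± 14.1 CPM in the glia-rich cluster 8 and at 4.42 to 11.7 CPM in the other clusters. NF-like clusters 3 and 4 supplied 49.5% and 40.4% of all Anxa4 UMIs, and 18.4% and 14.7% of the UMIs of all genes.

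Anxa3 averaged 48.1 ± 24.9 CPM (n = 16) in PEP2-like neurons, 23.2 ± 20.7 CPM (n = 12) in SST-like cluster 5 and 11.6 ± 7.04 CPM (n = 12) in NF-like cluster 3. In every other cluster it was at 7.30 CPM or less. The spread within PEP2-like neurons was wide, with a lower quartile of 0, a median of 17.8 and an upper quartile of 62.3 CPM per cell. Both SST-like clusters were high in Anxa8, but Anxa3 was at 2.36 ± 3.62 CPM in cluster 7, so the pair of clusters differed in this gene.

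**Figure D2:**
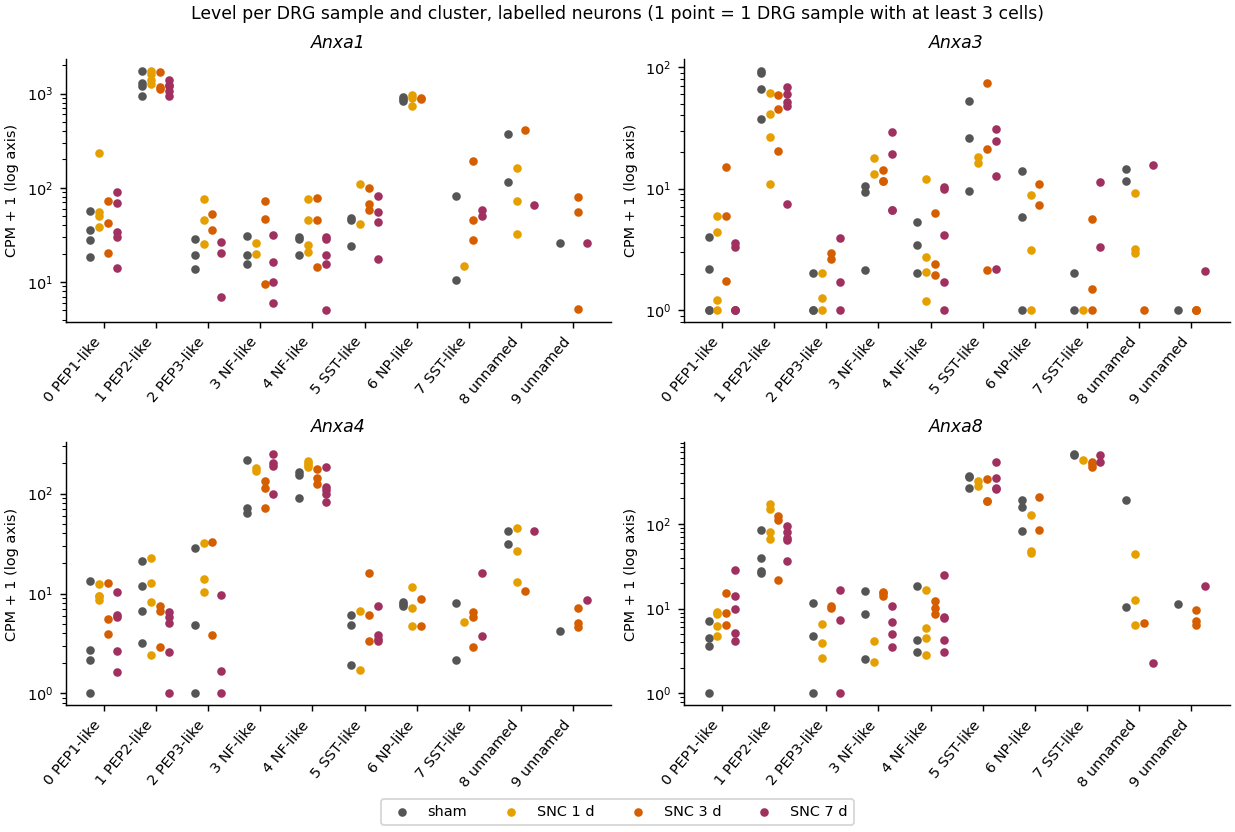
CPM + 1 on a log axis of Anxa1, Anxa3, Anxa4 and Anxa8 in each cluster of labelled neurons, 1 point for each DRG sample with at least 3 cells in that cluster, coloured by group. Anxa1 in PEP2-like neurons lies between 938 and 1730 CPM in all 16 samples, and Anxa8 in SST-like cluster 7 between 464 and 655 CPM in the 8 samples with enough cells.

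The other members were graded rather than restricted. Anxa5, whose protein binds exposed phosphatidylserine and is used to stain dying cells, was at 1162 ± 402 CPM (n = 11) in PEP3-like neurons and 1102 ± 192 CPM (n = 8) in cluster 6, against 505 ± 82.0 and 529 ± 143 CPM in the NF-like clusters. Anxa11, which can tether RNA granules to moving lysosomes in axons, was highest in PEP2-like neurons (402 ± 88.9 CPM) and lowest in PEP3-like neurons (204 ± 48.4 CPM), and PEP2-like neurons exceeded the rest of their sample in 16 of 16 samples by 1.43-fold on average. Anxa2, which forms a complex with S100A10 at the plasma membrane, varied from 1082 ± 165 CPM in NF-like cluster 3 to 1480 ± 89.6 CPM in SST-like cluster 7. Anxa6, an annexin with a longer core that acts in endosome traffic, ranged from 446 to 562 CPM over the clusters, and Anxa7, a partner of the calcium-binding proteins Sri and Pdcd6, from 140 to 204 CPM.

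The added sham neurons gave 7 clusters. Anxa1 was at 558 ± 65.6 CPM (n = 7) in cluster 4, at 428 ± 115 CPM (n = 6) in cluster 2, led by Rbp2, Otof and Adora2b with Mrgprb4 next, and at 201 ± 73.2 CPM (n = 7) in NP-like cluster 3. Clusters 2 and 4 had no name, as only 2 of 5 markers were high for the type with the largest share of its list (NP), and they also had 4 and 3 of 28 PEP3 markers high. Anxa4 was at 110 ± 37.8 CPM (n = 5) in NF-like neurons and at 95.5 ± 20.8 CPM (n = 6) in cluster 0, values that do not differ beyond their spread. Cluster 0 had high glial genes, and 8 of 16 PEP1 and 9 of 28 PEP3 markers were high in it. Labelled PEP1-like neurons had 5.76 CPM of Anxa4. Cluster 0 yielded 56.5% of the Anxa4 UMIs and 33.1% of all UMIs, and the NF-like cluster 39.8% and 24.5%. Anxa8 was again highest in SST-like neurons (251 ± 74.4 CPM, n = 6). Anxa3 did not pass 4.34 CPM on average in any cluster. No PEP2-like cluster was named among these neurons, so levels in that type could not be compared between the sets.

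Over the 930 labelled neurons, Pearson correlations of log2(CPM + 1), taken after the mean of each DRG sample was subtracted, were used to find the genes most alike to each member among 10927 genes with a UMI in at least 25% of cells. The points share libraries and depth, and the values are descriptive. Among the genes closest to Anxa1 were Ctla2a (r = 0.58) and Cd24 (0.57). Among those closest to Anxa3 were Prss23 (0.43) and Il24 (0.43), and Ctla2a and Prss23 are among the leading genes of the PEP2-like cluster, as are Anxa1 and Anxa3. Anxa4 was closest to Fgf9 (0.65), Ntsr2 (0.62) and Smim18 (0.61), and Anxa8 to Tmem233 (0.60), Tmem45b (0.60) and Osmr (0.58). Anxa5 was closest to Atp1b3 (0.64) and Lxn (0.62), both on the PEP3 marker list, and to Serpinb6a (0.61). Anxa11 was closest to Cldnd1 (0.57), on the PEP1 marker list, and to Matr3 (0.56) and Akap11 (0.55).

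Broadly expressed members were most alike to genes detected in nearly every cell. For Anxa2 these were the actin regulator Cfl1 (0.83), the myosin light chain gene Myl6 (0.82) and the tubulin-binding Stmn3 (0.82). For Anxa6 they included the mitochondrial enzyme Mdh2 (0.71) and the small GTPase Arf5 (0.58), and for Anxa7 the kinase Pdpk1 (0.54), Psen2 (0.52) and Ap3s1 (0.51). Between members the highest correlation was that of Anxa3 with Anxa1 (0.38) and the lowest that of Anxa4 with Anxa2 (−0.32).

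The relation to Sprr1a was read within each labelled sample, by summing the third of its neurons with the most Sprr1a and the third with the least, 308 neurons in each set. Sprr1a was detected in 788 of 930 labelled neurons, those of sham samples included. In added sham it had 6 UMIs, all in 1 of 503 neurons, so the relation could not be read there. The 2 sets had similar depth, with a median of 239733.5 UMIs in Sprr1a-high and 247308.5 in Sprr1a-low neurons. They differed in makeup. Sprr1a-high neurons were 34.7% PEP1-like and 30.5% PEP2-like (4.55% and 8.12% of the low set), and Sprr1a-low neurons were 25.3% PEP3-like, 14.9% SST-like of cluster 7 and 13.3% of the Mrgprb4-led cluster 6 (1.30%, 0% and 0.974% of the high set).

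Anxa11 was higher in the Sprr1a-high neurons of 16 of 16 samples, with a median log2 ratio of 0.42 (range 0.09 to 0.67) and median levels of 312 against 241 CPM. Among 8183 genes with a mean of at least 10 CPM, 3.2% were above 0 in every sample, and this direction was part of what selected the members. Anxa5 was lower in 16 of 16 samples, by a median log2 ratio of −0.37 (range −1.04 to −0.04; 592 against 783 CPM), where 4.04% of genes were below 0 in every sample. When the sets were taken within each cluster of a sample, Anxa11 stayed above 0 in 16 of 16 samples (0.31) and Anxa5 below 0 in all but 2 (−0.25). With these sets 0.648% of genes were above 0 in every sample. Anxa5 was above 0 in 1 of 16 samples with cells split at the median of Sprr1a, and in 3 with cells thinned to 20000 UMIs. Anxa11 was above 0 in 15 of 16 samples in both cases. Without clusters with high glial genes Anxa5 was above 0 in 2 of 16 samples and Anxa11 in 16 of 16.

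**Figure D3:**
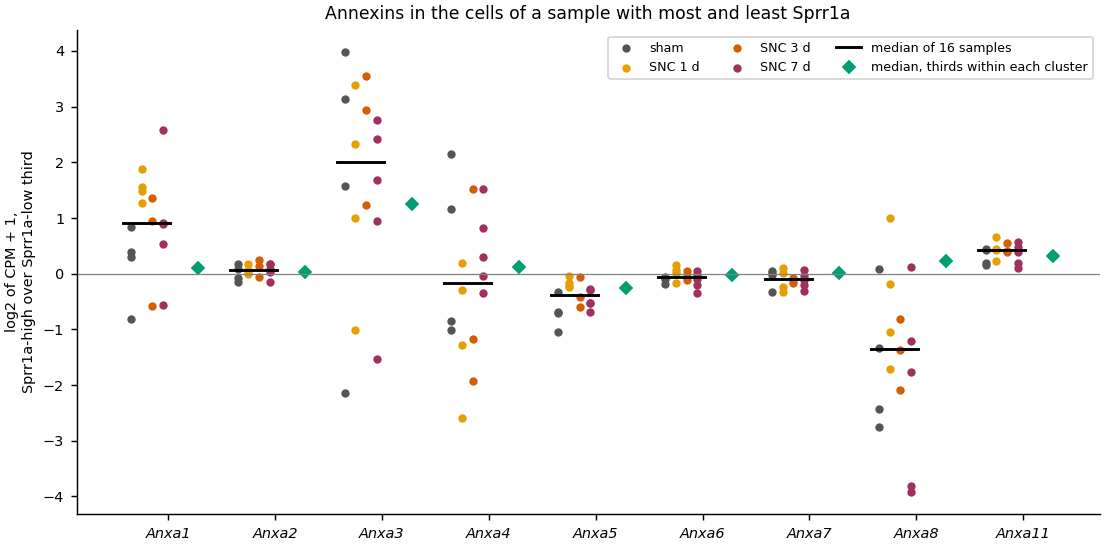
Log2 ratio of the CPM (plus a pseudocount of 1) of each annexin in the third of neurons with most Sprr1a over the third with least, 1 point for each of the 16 labelled DRG samples, with the median as a black line and the median for sets taken within each cluster as a diamond. All points of Anxa11 lie above 0 and all points of Anxa5 below 0, while the median of Anxa8 moves from −1.35 to 0.23 when the sets are taken within clusters.

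Anxa3 had the largest median ratio, 2.01, above 0 in 13 of 16 samples, with 16.8 against 5.15 CPM, and 1.26 within clusters. Anxa1 also had a positive ratio in 13 of 16 samples, with a median of 0.91 (351 against 177 CPM), which was 0.10 and positive in 9 of 16 samples within clusters. Anxa8 was lower in Sprr1a-high neurons, with a median of −1.35 and 3 of 16 samples above 0 (57.4 against 150 CPM), and this turned to 0.23 with 10 of 16 above 0 within clusters. Sets taken within clusters also differed less in Sprr1a itself, by a median log2 ratio of 3.08 against 5.94, and the part of this and of cluster makeup in the shifts was not tested. With cells split at the median of Sprr1a, Anxa4 was at 0.27 (10 of 16 above 0), and with the first split at −0.16 (7 of 16). Anxa7 (−0.09, 5 of 16), Anxa6 (−0.07, 5 of 16) and Anxa2 (0.07, 12 of 16) had medians near that of all genes (−0.05).

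When neurons were split by Atf3, an injury-induced transcription factor gene, instead of Sprr1a, Anxa2 was higher in the Atf3-high set in 16 of 16 samples (median 0.28) and Anxa6 in 13 of 16 (0.13). In this split 4.08% of all genes compared were above 0 in every sample. Anxa4 was at −1.16, above 0 in 3 of 16 samples. For Anxa5 the median was −0.17, above 0 in 4 of 16 samples, for Anxa11 0.38, in 15 of 16, and for Anxa1 1.15, in 14 of 16. Anxa7 was at −0.27, near the median of −0.25 over all 8183 genes in this split, of which 25.3% were above 0. The same split could be made in added sham, where Atf3 averaged 142 ± 40.2 CPM (n = 7). Anxa1 was above 0 there in 7 of 7 libraries (median 0.61, range 0.12 to 1.88), and so was Anxa7 (0.15, range 0.08 to 0.36), while Anxa2 was in 3 of 7 (−0.01) and Anxa4 in 2 of 7 (−0.35). The values of all genes were not computed for this split, and values within clusters are not reported here. Over the added sham clusters Anxa1 averaged 13.4 to 558 CPM. The difference between the 2 sets of neurons was not tested.

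The groups were compared on UMIs summed over all neurons of a DRG sample, the sample being the replicate. In such sums, fewer cells of a type and less RNA per cell cannot be told apart. By edgeR's quasi-likelihood test with Benjamini-Hochberg adjustment, 0 of 14239 genes (0%) passed an adjusted p of 0.05 against sham at 1, 3 or 7 days, members included. An unadjusted p under 0.05 was given to 8.73% of genes at 1 day (2 of the 9 members, Anxa3 and Anxa8), 4.17% at 3 days (0 members) and 3.34% at 7 days (1 member, Anxa5), and DESeq2 called 8, 1 and 0 genes, with 0 members. The median log2 fold change of the members was −0.12 at 1 day, −0.15 at 3 days and −0.13 at 7 days, against −0.01 over all genes at 1 and at 7 days. Without sham sample Xin the median of the members was 0.039 at 3 days and 0.11 at 7 days. The injury genes Atf3, Gal, Jun, Sprr1a, Sox11, Ecel1 and Gap43 were not called either. Values from here on are CPM scaled by the TMM normalization of edgeR. Sprr1a averaged 164 CPM in labelled sham, 168, 151 and 152 CPM at 1, 3 and 7 days, and 0.0276 CPM in added sham. Atf3 averaged 623 CPM in labelled sham, 541, 536 and 560 CPM at these times, and 142 CPM in added sham. Labelled sham thus held these 2 injury genes at levels like those after SNC, and the cause was not tested.

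Anxa3 had the largest difference, an estimated log2 fold change of −1.46 ± 0.49 (SE; adjusted p = 0.53) at 1 day. It was at 41.5 (Xin), 21.3 (4), 10.7 (10) and 7.65 CPM (18) in the sham samples, at 8.13 (13), 8.03 (16), 7.92 (17-1) and 4.94 CPM (17-2) at 1 day, at 8.97 (14), 16.2 (15) and 15.2 CPM (17-3) at 3 days, and at 29.4 (S), 15.5 (8), 11.8 (9), 6.62 (19-1) and 11.9 CPM (19-2) at 7 days. Xin was the highest of all samples and 1-day sample 17-2 the lowest, and sham overlapped the other groups at each time. Without Xin the log2 fold change was −0.85 at 1 day. Within PEP2-like neurons Anxa3 averaged 70.3 ± 25.9 CPM (n = 4) in sham, 34 ± 21.5 (n = 4) at 1 day, 40.6 ± 19.5 (n = 3) at 3 days and 46.1 ± 23.5 (n = 5) at 7 days, with ranges that overlapped.

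Anxa8 was at 156 (Xin), 133 (18), 92.0 (10) and 81.4 CPM (4) in sham and at 78.6 (13), 73.7 (17-2), 48.8 (17-1) and 41.2 CPM (16) at 1 day. All 4 samples at 1 day, of which 17-1 and 17-2 share a number, lay below all 4 sham samples, the only case among the members. Over all genes 1.14% lay lower without overlap. This share covers 1 direction, whereas those below for 3 and 7 days cover both. The log2 fold change of Anxa8 was −0.93 ± 0.35 (adjusted p = 0.53). At 3 days it was at 132 (17-3), 103 (15) and 79.7 CPM (14), and at 7 days at 226 (19-2), 106 (9), 81.6 (19-1), 73.7 (S) and 64.9 CPM (8), overlapping sham at both times. No member stood apart from sham at 3 days (5.93% of genes did, in either direction) or at 7 days (0.878%). Within SST-like cluster 5, Anxa8 averaged 330 ± 56.6 CPM (n = 3) in sham and 298 ± 33.9 (n = 2) at 1 day, and SST-like clusters 5 and 7 made up on average 8.65% and 4.98% of neurons in sham and 6.28% and 3.69% at 1 day. The part of these shares in the lower level was not tested.

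**Figure D4:**
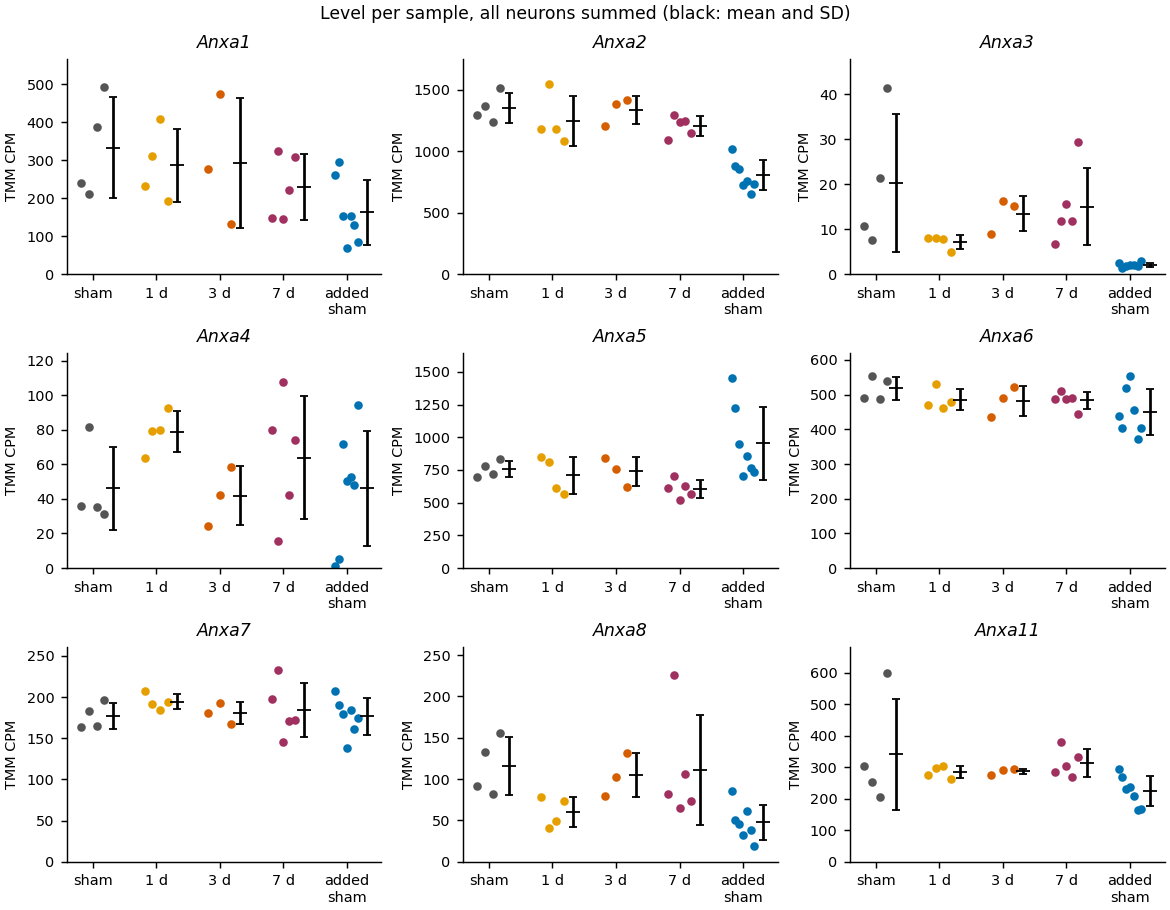
TMM-normalized CPM of the 9 annexins in every sample by group, all neurons of a sample summed, with the mean and SD in black (n = 4, 4, 3, 5 and 7). Anxa8 at 1 day lies below every sham sample, Anxa2 and Anxa3 in the 7 added sham libraries lie below every labelled sham sample, and the other labelled groups overlap sham.

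Anxa4 was at 81.6 (18), 35.9 (10), 35.4 (4) and 31.3 CPM (Xin) in sham, at 92.8 (17-2), 79.9 (17-1), 79.5 (16) and 63.7 CPM (13) at 1 day, at 58.6 (17-3), 42.2 (15) and 24.5 CPM (14) at 3 days, and at 108 (8), 79.8 (19-1), 74.2 (S), 42.1 (9) and 15.5 CPM (19-2) at 7 days. Sham sample 18 reached the 1-day levels while the other sham samples were lower, and the log2 fold change at 1 day was 0.78 ± 0.44 (adjusted p = 0.62). The share of neurons in NF-like cluster 4, where Anxa4 is high, was on average 16.2% at 1 day and 7.06% in sham, whereas that in NF-like cluster 3, with as much Anxa4, was 4.45% and 8.38%. Within cluster 4 Anxa4 was at 197 ± 11.7 CPM (n = 4) and 135 ± 39.3 CPM (n = 3).

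Of the sham and 7-day groups, 3 samples each were reverse transcribed in 2019, and all remaining samples in 2020, so 1 and 3 days can be set against a single sham sample (18) of their year. For Anxa4 the log2 difference at 7 days was 1.01 among samples of 2019 (42.1 to 108 against 31.3 to 35.9 CPM) and −1.18 among those of 2020 (15.5 to 79.8 against 81.6 CPM). At 1 day it was −0.06 within 2020, where that for Anxa8 was −1.17 and that for Anxa3 −0.09. Each of these values at 1 day rests on sham sample 18 alone, and the part of the year was not tested. Sham sample 4 and 7-day sample 8 were reverse transcribed on the same day, as were sham sample 10 and 7-day sample 9. Within these pairs Anxa5 was at 723 and 520 CPM and at 695 and 627 CPM, sham first, and Anxa4 at 35.4 and 108 CPM and at 35.9 and 42.1 CPM.

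Anxa2 was at 1517 (Xin), 1366 (18), 1296 (10) and 1239 CPM (4) in sham, at 1547 (16), 1184 (13), 1182 (17-1) and 1083 CPM (17-2) at 1 day, at 1420 (17-3), 1382 (15) and 1209 CPM (14) at 3 days, and at 1298 (19-2), 1246 (9), 1241 (8), 1151 (S) and 1093 CPM (19-1) at 7 days. All labelled groups overlapped, with log2 fold changes of −0.12 ± 0.11, −0.03 ± 0.11 and −0.18 ± 0.10. Anxa1 ranged from 210 to 494 CPM in sham, 193 to 410 at 1 day, 133 to 474 at 3 days and 145 to 326 at 7 days, and Anxa5 from 695 to 832, 564 to 851, 623 to 844 and 520 to 707 CPM. Anxa11 ranged from 206 to 600 CPM in sham, the highest being sample Xin, and from 264 to 381 CPM over the 12 SNC samples. Anxa6 (436 to 553 CPM) and Anxa7 (146 to 233 CPM) also overlapped between all labelled groups, and their log2 fold changes lay between −0.11 and 0.14.

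Sums over PEP1-like neurons alone tested 10622 genes and called 1 gene at 1 day, 1 at 3 days (0.00941% each) and 0 at 7 days (0%), with 0 of 9 members at any time. An unadjusted p under 0.05 was reached by 10.6%, 6.23% and 4.71% of genes and by 2, 1 and 2 members. These were Anxa1 (1.29 ± 0.57) and Anxa2 (−0.40 ± 0.16) at 1 day, Anxa3 (2.93 ± 1.37) at 3 days, and Anxa8 (1.47 ± 0.66) and Anxa2 (−0.38 ± 0.15) at 7 days. DESeq2 called 16, 2 and 2 genes. Within PEP1-like neurons Anxa1 averaged 33.7 ± 16.6 CPM (n = 4) in sham and 92.8 ± 91.8 CPM (n = 4) at 1 day, where 1 sample was at 230 CPM and the lowest at 37.4 CPM. With no filter on low counts edgeR called 184 genes at 1 day, Anxa1 among them (adjusted p = 0.00085), the only call of a member after SNC under any setting tried. For this setting the share of all genes called is not reported here, and the call is not read as particular to Anxa1.

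**Figure D5:**
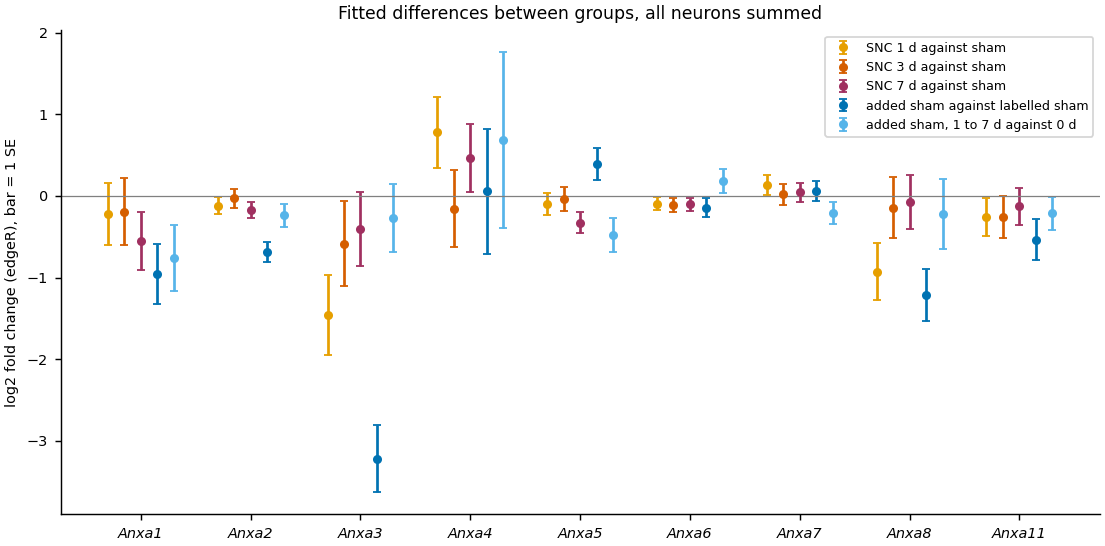
Log2 fold changes of the 9 annexins fitted by edgeR, all neurons of a sample summed, with bars of 1 SE, for 1, 3 and 7 days after SNC against sham, added sham against labelled sham, and added sham at 1 to 7 days against day 0. Anxa3 of added sham lies lowest, at −3.22, and Anxa3 at 1 day is next, at −1.46.

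Time within the added sham libraries was not among the values that selected the members and was tested, days 1, 3 and 7 pooled (4 libraries) against day 0 (3 libraries). By edgeR 0 of 16175 genes (0%) passed, 9.29% had an unadjusted p under 0.05, with 0 members among them, and DESeq2 called 288 genes, of which 0 were members. On counts simulated with the spread of these libraries, the edgeR fit found 5.97% of log2 changes of 1 and 42.1% of log2 changes of 2. A lack of calls here therefore does not show that levels stayed the same. Anxa5 was lowest in adjusted p (0.53), with a log2 fold change of −0.48 ± 0.21. The estimate for Anxa1 was −0.76 ± 0.41 (adjusted p = 0.54), with levels of 261 (S1), 297 (S2) and 84.4 CPM (S7) at day 0 and 68.1 to 154 CPM later. For Anxa4 it was 0.68 ± 1.08 (adjusted p = 0.83), with 1.19 (S1), 5.12 (S2) and 94.1 CPM (S7) at day 0 and 48.1 to 71.6 CPM later. All 9 members overlapped between the 2 sets, where 10.8% of genes did not. Without library S7, which differed from S1 and S2 at day 0, 1992 genes and 3 members were called, Anxa1 (−1.13), Anxa4 (4.13) and Anxa5 (−0.70). The share of all genes called in this fit is not reported here, and these calls are not read as particular to the members. Libraries S1 and S2 held 0 cells of the NF-like cluster and 0 and 3 cells of cluster 0, the clusters with most Anxa4.

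Added sham and labelled sham differ in many genes, 40.6% of 15791 (16.5% lower in added sham). Dye, picking and date are not stated for each added sham library. Any difference in these cannot be told apart from the group. Of the members, edgeR called 3, all lower in added sham, Anxa3 (−3.22 ± 0.41), Anxa8 (−1.22 ± 0.32) and Anxa2 (−0.69 ± 0.12). Over the 7 added sham libraries the lowest, median and highest values were 1.38, 1.97 and 2.87 CPM for Anxa3, 19.2, 46.1 and 86.0 CPM for Anxa8, 656, 756 and 1018 CPM for Anxa2, and 1.19, 50.1 and 94.1 CPM for Anxa4. Those of Anxa2 and Anxa3 lay below every labelled sham sample (12.8% of all genes lay lower without overlap), and those of Anxa8 overlapped. Anxa1 (−0.96 ± 0.37, adjusted p = 0.051) and Anxa11 (−0.53 ± 0.25) had negative and Anxa5 (0.39 ± 0.19) positive estimates that did not pass. By DESeq2 Anxa1 passed as well (adjusted p = 0.036), as it did by edgeR without sham sample 10 (0.046) or 18 (0.037) or library S1 (0.022) or S2 (0.017), and Anxa11 passed without sham sample 4 (0.030). The median log2 fold change was −0.53 over the members and 0.15 over all genes. Injury genes moved with the group, as Gal averaged 6.89 ± 6.47 CPM in added sham and 1295 ± 915 CPM in labelled sham, and the summed neuronal markers (4 genes) ranged from 3879 to 5163 and from 6552 to 9686 CPM. The part of these in the annexin levels was not tested.

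Known partners of annexins were listed as 19 genes, of which 16 passed the filter on low counts in the sums over all labelled neurons, and 0 of 16 were called against sham by edgeR at any time. An unadjusted p under 0.05 was reached by 4, 0 and 3 of them at 1, 3 and 7 days. Their median log2 fold change was 0.16, 0.02 and 0.03. Over the labelled samples the S100 protein genes S100a10, S100a11 and S100a6 averaged 1558, 906 and 596 CPM, and the scaffold gene Ahnak 430 CPM. Fpr1 and Fpr2, receptors for annexin A1, were at 0.0844 and 0.0800 CPM and did not pass the filter, nor did the calpain subunit gene Capns1.

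In added against labelled sham 7 of 16 partners were called, a share near the 40.6% of all genes. Those lower in added sham were S100a10 (−0.75 ± 0.13), the partner of annexin A2 and 939 ± 138 against 1652 ± 159 CPM, S100a11 (−1.16 ± 0.27), S100a4 (−2.47 ± 0.26), the scramblase gene Plscr1 (−2.93 ± 0.70) and the partners of annexins A7 and A11 Pdcd6 (−0.45 ± 0.13) and Sri (−0.51 ± 0.19). Dysf, which encodes the membrane repair protein dysferlin, was higher (0.71 ± 0.16, 113 ± 19.2 against 72 ± 14.5 CPM).

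A pair of 7-day samples differs in the labelled numbers of injured neurons, 20 directly and 4 indirectly injured in 19-1 and 4 directly and 20 indirectly injured in 19-2. With 1 sample each there is no test. Anxa8 was at 81.6 and 226 CPM in 19-1 and 19-2, Anxa4 at 79.8 and 15.5 CPM, Anxa1 at 147 and 326 CPM and Anxa3 at 6.62 and 11.9 CPM. Their neurons differed in type as well, with 6 and 0 cells in NF-like cluster 3, 2 and 4 in SST-like cluster 5 and 1 and 4 in SST-like cluster 7.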

How the data were processed

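The deposited files hold UMI counts per gene and cell, 1 file for each of 24 libraries. The authors made them from reads of a modified Smart-seq2 protocol that tags the 3′ end of each RNA, so a count is a number of molecules and was not normalized before deposit. The members and the gene lists were chosen with earlier results of these data known, and the peptidergic marker lists were taken from the study's own tables, so they are not independent of these samples.

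QC cells had a minimum of 500 genes and 1000 UMIs and less than 5% of UMIs from Mt- genes (1433 of 1464 cells). No doublet caller was run, since cells were picked singly. Libraries S-2 and S-3 were summed as 1 sample, whereas 17-1, 17-2 and 17-3, and also 19-1 and 19-2, were kept as separate samples. Clustering used Seurat 5.3.0 (total of 10000, 2000 variable genes, 40 principal components, resolution 0.5) in R 4.3.3, the labelled and added sham cells apart. A marker was high at 1.5-fold over the other cells with a UMI in at least 25% of cells. Levels by cluster used samples with at least 3 cells in it.

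Counts summed per sample were fitted with edgeR 4.0.16 (quasi-likelihood, TMM, filterByExpr, Benjamini-Hochberg adjustment over all genes tested, threshold 0.05), all 4 labelled groups in 1 fit without covariates, and scripts were tested on simulated data. DESeq2 1.42.0, other normalization and filters, thinning to 20000 UMIs, a model term for the reverse transcription year and leaving out each sample were alternatives. Cells of a time point came from several rats and samples may share rats, so p-values measure the spread between these samples. Over the 29 pairs of samples within a group, the chi-square per degree of freedom was 10.7 to 118, and none was counted as a duplicate. The lowest value was that of 17-1 with 17-2, and the other 1-day pairs had 25.6 to 35.8. Samples 17-1 and 17-2 share a number and a day of reverse transcription, so they may not be independent replicates. Values in every sample are given for the 3 members with the largest fold change against sham and for Anxa2. Some of the genes most alike to a member are not reported here. Counts were summed with NumPy 2.4.6 and pandas 2.3.3.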

Additional observations from a re-analysis of the deposited data

Results flagged for a closer look

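Of 36 sets of samples (9 members in each of the groups with at least 4 samples), 3 held a sample far from the others, and chance gives about 1 in 20. Anxa3 was at 4.94 CPM in 1-day sample 17-2, with the other 1-day samples at 7.92 to 8.13 CPM. Anxa4 was at 81.6 CPM in sham sample 18, with the other sham samples at 31.3 to 35.9 CPM. Anxa8 was at 226 CPM in 7-day sample 19-2, with the other 7-day samples at 64.9 to 106 CPM.

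Anxa4 at 7 days against sham differed in direction between the years of reverse transcription, with a log2 difference of 1.01 in 2019 and −1.18 in 2020. The latter rests on 1 sham sample, number 18, and on 7-day samples 19-1 and 19-2, which share a number. The difference between the years was not tested.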

How the results depend on the processing

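Against sham in all labelled neurons, 0 members were called under each of the alternatives run, and of 648 values of single members 641 kept their size within the spread and 7 did not. The median log2 fold change of the members ranged from −0.24 to 0.039 at 3 days and from −0.21 to 0.11 at 7 days when 1 sample was left out, the highest values being those without sham sample Xin. In PEP1-like neurons 1 member was called with no filter on low counts, among many other genes. In added sham the members called numbered from 0 to 3 with 1 library left out, 3 without S7, where many other genes were called as well. There the log2 fold change of Anxa8 was 0.39 without clusters 0 and 1, an alternative chosen after seeing the data, and ranged from −0.60 to 0.36 with 1 library left out, 0.36 being without S1. With Atf3 in place of Sprr1a the median log2 ratio was 0.28 for Anxa2, 0.13 for Anxa6, −0.27 for Anxa7 and −1.16 for Anxa4, and with a split at the median of Sprr1a it was 0.27 for Anxa4. It was 0.23 for Anxa8 with sets taken within clusters and 0.59 for Anxa11 with cells thinned to 20000 UMIs. The cause of these shifts was not tested. Resolution 0.3 gave 8 clusters and joined PEP2-like neurons with cluster 6 (Anxa1 at 1122 CPM), and the joined cluster was NP-like by its markers. Low counts limit Anxa3, which had no UMI in most cells. Samples could not be paired by number, because no sham sample shares its number with a sample it was compared with. A fit with the day of reverse transcription as a block was not run.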
